A study of Equus caballus with 4 samples.

Results

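The myosin light chain genes and the kinases that phosphorylate their products were examined in cultured equine satellite cells (ESC), which are stem cells of skeletal muscle and fuse into myofibers. The list comprised 10 genes: *MYL1*, *MYL2*, *MYL3*, *MYL4*, *MYLPF*, *MYL6B*, *MYL6*, *MYL9*, *MYLK*, and *MYLK2*. Probes were chosen by the gene symbol in the scanner files, which gave 16 probes for 8 of the genes among the 43603 probes of the array. The probe of *MYL9* carried a provisional symbol in the files and was named through RefSeq, so that 9 genes with 17 probes were at hand. For *MYLPF*, the fast skeletal regulatory chain, no probe carried the symbol and the gene was not analysed here.

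All ESC came from the m. semitendinosus and were harvested on differentiation day 3. Cells of the HMB-treated group were incubated with 50 µM HMB, a leucine metabolite, for 24 h and received 3 mM H2O2 for the last 1 h, whereas the control group received the same H2O2 and no HMB. On each of 4 arrays the RNA of HMB-treated cells was labeled with Cy5 and that of control cells with Cy3, and the value of a probe is the log2 ratio of both, with negative values for lower expression in the HMB-treated group. The dyes were not swapped, so that the treatment and the dye cannot be told apart. The methods state that 1 primary culture with the best viability and fusion was selected, and the control RNA carries the label of replicate 1 on each array. The 4 ratios are thus not known to come from 4 horses or 4 controls, and the p-values measure only the spread between these arrays, all of which lay on 1 slide.

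A myosin molecule consists of heavy chains with a motor head, and of small light chains wrapped around the neck behind it. Each neck carries an essential light chain, which stiffens the lever, and a regulatory light chain, which can be phosphorylated. Striated muscle, smooth muscle, and non-muscle cells use different light chain genes. Phosphorylation by a dedicated kinase switches on smooth and non-muscle myosin, but only modulates the force of striated muscle.

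The probes were 60 bases long. Their positions are those that the files give on EquCab1, without an exon. The probe of *MYL1* lay within chr6:1026937-1029285 and that of *MYL4* within chr11:16047778-16048383, both on the minus strand. The intervals of 2349 and 606 bases are longer than the probe, as they would be for a probe that joins separate exons. The probe of *MYL3* lay within chr16:39990724-39993217, that of *MYL2* at chr8:20923471-20923530, and that of *MYL9* at chr22:27127145-27127204. The probe of *MYLK* was at chr19:32058194-32058253, and the *MYLK2* probes fell within a 1048-base interval that for the brightest probe was chr22:22818964-22820011. The probes of *MYL6* and *MYL6B* were placed on unassigned sequence (chrUn).

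The sequences of the *MYL1* and *MYL4* probes are shown because both genes encode essential chains with very similar ends, which limits how far their values are separate measurements. Written 5′ to 3′, with capitals for the bases at which they differ, 50 of the 60 bases were identical (83.3%), and both probes end with a stop triplet.
MYL1: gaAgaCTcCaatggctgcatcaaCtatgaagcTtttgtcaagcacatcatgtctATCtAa
MYL4: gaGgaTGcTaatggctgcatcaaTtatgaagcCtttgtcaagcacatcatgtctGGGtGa
How much each probe binds the transcript of the other gene was not tested. The next most similar pair was *MYL3* with *MYL6B*, which shared 32 of 45 overlapping bases (71.1%). Here capitals mark bases that differ or lie outside the overlap.
MYL3: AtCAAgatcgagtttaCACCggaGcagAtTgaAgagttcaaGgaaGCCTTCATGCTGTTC
MYL6B: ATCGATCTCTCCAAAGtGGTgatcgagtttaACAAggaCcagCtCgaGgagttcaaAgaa

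The 4 measured light chains of striated muscle had ratios below 0 on all 4 arrays, and 3 of them were called lower in the HMB-treated group, whereas the smooth and non-muscle chains were not called in either direction. A probe was called at an adjusted p ≤ 0.05 and an FC of at least 1.3 in limma's fit across 24669 tested probes. Among the member probes, 12 were tested. Of these, 4 were called lower, 1 each of *MYL2*, *MYL3*, *MYL4*, and *MYLK*, and 0 were called higher. With treat, a limma test against an FC of 1.3, the number of member probes called lower was 0. Over all tested probes 16.4% were called lower, 12.1% higher, and 28.6% in either direction, and the median log2 ratio was −0.07. Higher probes made up 42.5% of all calls, a share that became 52.4% with median centering, 55.5% with a correction for GC content, 55.0% with normexp, 60.1% without background correction, and 6.72% with scaling to spike-in RNA. In these RNA pools, fewer cells of a type and less RNA per cell cannot be told apart.

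**Figure D1:**
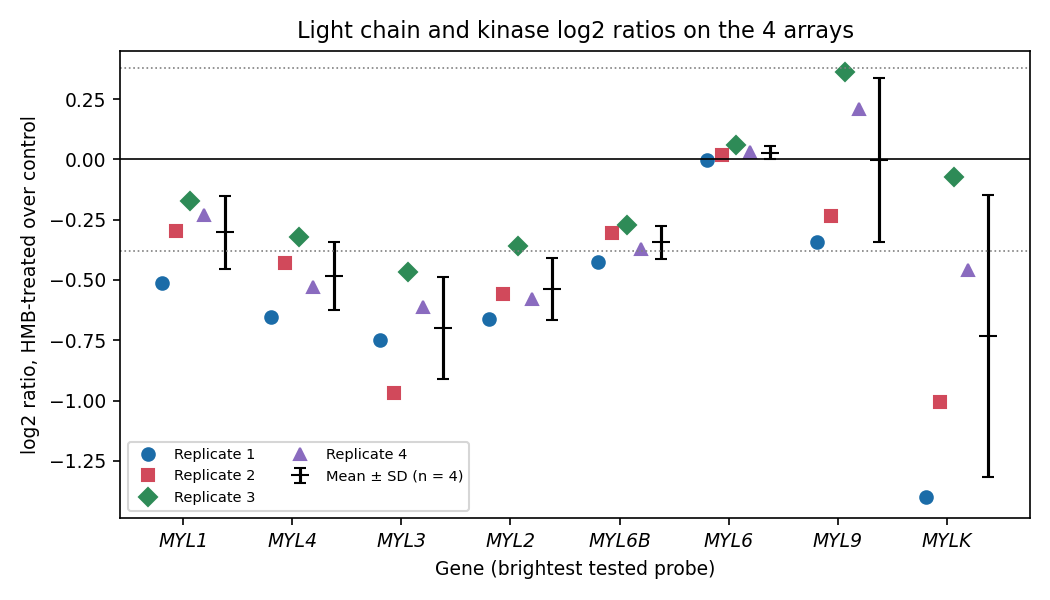
The log2 ratio of HMB-treated over control ESC (y axis) is plotted for the brightest tested probe of each gene (x axis), with 1 symbol per array, the mean and SD of the 4 arrays in black, and dotted lines at an FC of 1.3. All points of *MYL1*, *MYL2*, *MYL3*, *MYL4*, *MYL6B*, and *MYLK* lie below 0, those of *MYL6* lie at 0, and those of *MYL9* lie on both sides.

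*MYL3*, the essential chain of slow and ventricular muscle, had the lowest mean of the striated chains in the deposited ratios. Its log2 ratio was −0.75 in replicate 1, −0.97 in replicate 2, −0.47 in replicate 3, and −0.61 in replicate 4. The mean was −0.70 ± 0.21 (SD, n = 4), an FC of 1.62, with an adjusted p of 0.00175 by limma. Every array was past an FC of 1.3, and the lowest control signal, 312 units, was above the highest HMB signal, 283 units. Of all tested probes, 5.25% had a lower ratio. With normexp the mean was −0.45 and without background correction −0.50, still called but no longer the lowest, as *MYL2* then had −0.56 in both.

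*MYL2* encodes the regulatory chain that pairs with it in slow muscle and the ventricle. Its log2 ratios in replicates 1 to 4 were −0.66, −0.56, −0.36, and −0.58. They gave a mean of −0.54 ± 0.13 (SD, n = 4), an FC of 1.45, and an adjusted p of 0.00182 by limma. Control signals of 30636 to 36289 units did not overlap the HMB signals of 20535 to 28309 units, and replicate 3 was the array with the smallest difference. The call was lost with median centering in place of lowess, where the log2 ratio was −0.27.

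*MYL4*, the essential chain of embryonic muscle and the atrium, gave log2 ratios of −0.65, −0.43, −0.32, and −0.53 in replicates 1 to 4. The mean was −0.48 ± 0.14 (SD, n = 4), an FC of 1.40, with an adjusted p of 0.0032 by limma. All arrays were below 0, with control signals of 40982 to 50296 units above HMB signals of 28773 to 40292 units. Here too the call was lost with median centering, where the log2 ratio was −0.10.

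*MYL1*, the essential chain of fast skeletal muscle, was lower on every array but did not reach the FC threshold. Its log2 ratios were −0.51, −0.30, −0.17, and −0.23 in replicates 1 to 4, with a mean of −0.30 ± 0.15 (SD, n = 4). The FC was 1.23 and the adjusted p by limma was 0.0194. Control signals of 14064 to 17083 units overlapped HMB signals of 11042 to 15173 units. The highest signal of each channel was that of replicate 3. Although the probes of *MYL1* and *MYL4* are so alike, their ratios were not the same. The difference of *MYL1* minus *MYL4* was 0.14, 0.13, 0.15, and 0.30 in replicates 1 to 4, a mean of 0.18 ± 0.08 (SD, n = 4), and thus above 0 on every array, but it turned to −0.02 with median centering. For *MYL3* minus *MYL1* the mean difference was −0.40 ± 0.19 (SD, n = 4), with −0.24 as the value nearest to 0, and it shrank to −0.10 with normexp and −0.18 without background correction. With 4 arrays, an exact two-sided sign test cannot give a p below 0.125, hence these differences are given without a test.

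*MYL6B* encodes an essential chain used in slow skeletal muscle as well as in non-muscle cells, and its mean was close to that of *MYL1*. The log2 ratios were −0.43, −0.31, −0.27, and −0.37 in replicates 1 to 4. The mean was −0.34 ± 0.07 (SD, n = 4), an FC of 1.27, with an adjusted p of 0.00554 by limma. It was not called, since its mean did not reach an FC of 1.3, which only the replicate 1 array did. Its difference from *MYL6*, next to which the files place it on chrUn, was −0.37 ± 0.05 (SD, n = 4).

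*MYL6* is the essential chain of smooth muscle and non-muscle myosin, and its ratios lay closest together of all members. The brightest probe gave log2 ratios of −0.00073, 0.02, 0.06, and 0.03 in replicates 1 to 4, with a mean of 0.03 ± 0.03 (SD, n = 4) and an adjusted p of 0.718 by limma. The control signals, 116857 to 158486 units, and the HMB signals, 118383 to 165298 units, covered nearly the same range. The 5 probes share at least 56 of their 60 bases, and so they are repeated readings of a single site. Their means ranged from −0.04 to 0.03, with adjusted p from 0.637 to 0.841, and single values from −0.11 to 0.09. These probes were brighter than 99.2% of the tested probes or more, where the ratio rests on the lowess curve. With median centering in its place the brightest probe was called higher (0.79), and with scaling to spike-in RNA it was called lower (−0.46).

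*MYL9*, the regulatory chain of smooth muscle and non-muscle myosin, had ratios on both sides of 0. Its log2 ratios were −0.34, −0.23, 0.36, and 0.21 in replicates 1 to 4. The mean was −0.0013 ± 0.34 (SD, n = 4) with an adjusted p of 0.995 by limma. Replicates 1 and 2 were below 0 and replicates 3 and 4 above it. Among the markers of smooth muscle and pericytes, *ACTA2*, smooth muscle actin, had ratios of −0.35, −0.31, 0.22, and 0.24, and *TAGLN*, an actin-binding protein of smooth muscle, had −0.33, −0.27, 0.11, and 0.03. Both genes were picked for this pattern after their values were seen, and they had the same signs as *MYL9* on each array. *PDGFRB* had these signs as well (−0.04, −0.13, 0.07, and 0.27). Others of the 6 tested markers did not. *CSPG4* had −0.02, −0.65, −0.10, and 0.27. *LMOD1* (−0.56, −0.44, −0.05, and −0.14) and *SMTN* (−0.59, −0.95, −0.37, and −0.45) were below 0 on all arrays. The control signals of *MYL9* were 7612, 6933, 6812, and 5069 units in replicates 1 to 4, and the HMB signals were 6003, 5898, 8756, and 5858 units.

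**Figure D2:**
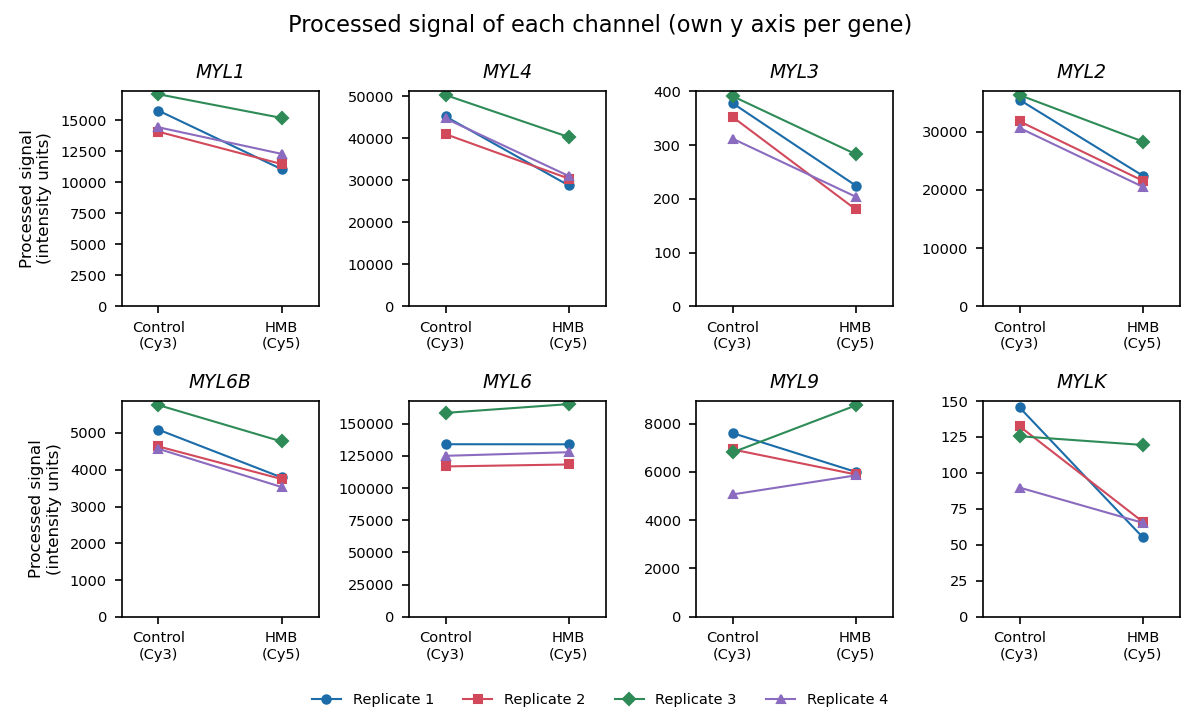
Processed signal (y axis, intensity units, starting at 0 and scaled separately for each gene) is shown for the control channel and the HMB channel (x axis), with a line for each of the 4 arrays. Lines fall on all arrays for the 4 striated chains, *MYL6B*, and *MYLK*, are flat for *MYL6*, and cross for *MYL9*.

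The mean over the 4 striated chains was −0.64, −0.56, −0.33, and −0.49 in replicates 1 to 4. For the smooth and non-muscle chains, *MYL6* with *MYL9*, it was −0.17, −0.11, 0.21, and 0.12. The striated chains were therefore lower than the non-muscle chains within each array. The difference was −0.47, −0.46, −0.54, and −0.61, with a mean of −0.52 ± 0.07 (SD, n = 4), and its spread was smaller than that of either class, 0.13 and 0.18. Counting *MYL6B* as non-muscle made it −0.40, and median centering −0.74. With median centering the striated chains lay nearer to 0 (*MYL1* −0.13, *MYL2* −0.27, *MYL3* −0.64, *MYL4* −0.10), and 1 of the 4 was called lower. The larger difference thus went with *MYL6*, which rose to 0.79. Since the classes hold 4 and 2 genes with known values, no test is given.

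Replicate 3 gave the highest ratio for each of the 8 tested member genes, and replicate 1 the lowest for 7 of them. Over all tested probes, replicate 3 was highest for 30.0% and replicate 1 lowest for 22.5%, and the array medians lay between −0.08 and −0.06. The part that the array played in the members' values was not tested.

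The probes of both kinase genes were dim. *MYLK*, the kinase of smooth and non-muscle light chains, was called lower, but with the widest spread of all members. Its log2 ratios were −1.40, −1.0, −0.07, and −0.46 in replicates 1 to 4, with a mean of −0.73 ± 0.59 (SD, n = 4), an FC of 1.66, and an adjusted p of 0.0292 by limma. Replicates 1 and 2 carried most of the decrease, while in replicate 3 the signals were 126 units in control and 119 units in HMB-treated cells. Only 21.0% of the tested probes were dimmer. The call was lost without replicate 1 (adjusted p = 0.0611), without replicate 2 (0.100), and without replicate 4 (0.0513) in limma's fit, and it was kept without replicate 3 (0.0191). It was also lost with normexp (log2 ratio −0.35) and without background correction (−0.38).

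*MYLK2*, the kinase of skeletal muscle light chains, could not be tested. Its 5 probes share at least 55 bases, and in the control channel they were well above background on 0 arrays. In the HMB channel, 1 array was well above background for each of 2 probes. Control signals ranged from 3.70 to 23.1 units, and HMB signals from 5.54 to 213 units. The value of 213 units came from 1 probe in replicate 3, with a log2 ratio of 5.17, whereas the other HMB signals of that probe were 5.81, 6.01, and 8.05 units. The overlapping probes did not share this value.

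Of the 26 genes listed for light chain phosphorylation, 16 were tested, of which 3 were called lower, 0 higher, and 13 not called. The share called lower, 18.8%, was close to the 16.3% of all tested genes. The median log2 ratio was −0.21, against −0.06 with normexp, −0.04 without background correction, and −0.07 with median centering. The largest fall was that of *PRKG1*, the cGMP-dependent kinase that promotes dephosphorylation, with −0.96, −0.47, −0.42, and −1.28 in replicates 1 to 4 (mean −0.78 ± 0.41, SD, n = 4; adjusted p by limma 0.00748). The other called genes were *DAPK3*, a calcium-independent light chain kinase, at −0.75 ± 0.27, and *ROCK1*, a kinase that inhibits the light chain phosphatase, at −0.41 ± 0.10 (SD, n = 4). Of the 5 tested probes of *ROCK1*, only 2 were called. By the brightest probe, all 3 called genes were below 0 on every array. The phosphatase catalytic subunit gene *PPP1CB* was not called, with −0.26 ± 0.21 (SD, n = 4). Of the remaining light chains listed, *MYL5* and *MYL7* did not pass the filter on dim probes, and *MYL10*, *MYL12A*, and *MYL12B* were not analysed here.

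The heavy chains that bind the striated light chains had lower ratios than the light chains themselves. Of 10 listed genes, 4 were tested. The 3 measured in both channels were called lower: *MYH3* (embryonic), *MYH8* (perinatal), and *MYH7* (slow). Over all tested genes, 16.3% were called lower. *MYH8* gave log2 ratios of −2.29, −2.16, −0.92, and −1.30 in replicates 1 to 4, and *MYH7* gave −1.37, −1.29, −0.96, and −1.39. The mean of *MYH3* was −1.38 ± 0.33 (SD, n = 4). For *MYH2*, the fast oxidative chain, the HMB channel was well above background on 0 arrays, so that it passed the filter only through the control and was at least 1.53-fold lower. The bound sets the control mean against the lowest signal well above background in the HMB channel and is open to dye bias. The list had a median of −1.52, or −1.31 with *MYH2* at its bound.

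For the 3 heavy chains measured in both channels, the difference from the mean of the striated light chains was −1.12, −1.05, −0.60, and −0.93 in replicates 1 to 4 (mean −0.93 ± 0.23, SD, n = 4). This comparison was chosen after the values were seen, and it was below 0 on each array. The non-muscle heavy chains *MYH9* and *MYH10* were not called, with means of −0.20 ± 0.53 and −0.30 ± 0.37 (SD, n = 4), except that both were called lower with scaling to spike-in RNA. Among proteins bound to striated myosin, 4 of 5 tested genes were called lower and 0 higher, against 16.3% and 12.3% of all tested genes. *MYOM1*, a protein of the M-band, fell most (log2 ratio −1.22 ± 0.20, SD, n = 4), with *MYOM2* at −1.12, *MYOM3* at −1.04, and the myosin chaperone *UNC45B* at −0.92. *MYBPH*, a myosin-binding protein, was not called (0.11 ± 0.20, SD, n = 4).

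**Figure D3:**
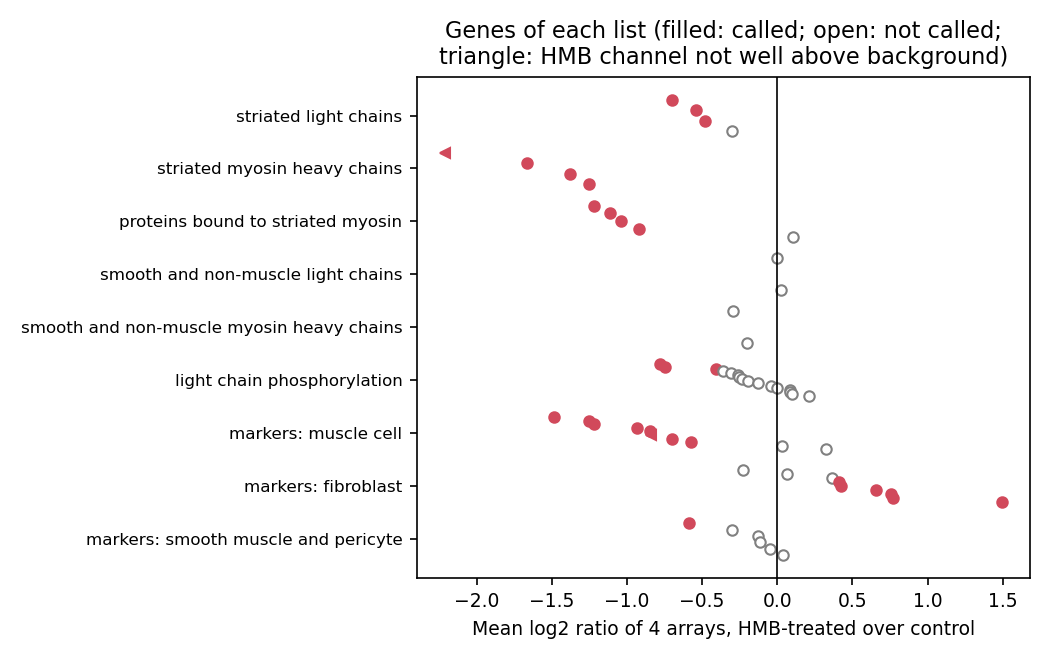
Mean log2 ratio of HMB-treated over control ESC over 4 arrays (x axis) for each tested gene of the lists named at the left, filled where called, open where not called, and as a triangle where the HMB channel was not well above background. All striated heavy chains and 4 of the 5 proteins bound to striated myosin lie to the left of the striated light chains (*MYBPH* lies to the right of 0), and most fibroblast markers lie to the right of 0.

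Most muscle markers fell as the striated chains did, whereas most fibroblast markers rose. Of 14 muscle markers, 10 were tested and 9 were well above background in both channels. Of these 9, 7 were called lower and 0 higher, beside 16.3% lower and 12.3% higher over all tested genes. For *MYF6* the HMB channel was well above background on 0 arrays, so that it passed the filter only through the control, and it was at least 1.18-fold lower. The median of the list was −0.84 (−0.77 with *MYF6* at its bound). Their summed signal was 81240 to 97651 units in control and 42868 to 62094 units in HMB-treated cells. *MYF5*, a regulator of muscle commitment, fell most (log2 ratio −1.49 ± 0.34, SD, n = 4). *MYOD1* and *MYOG*, the regulators of myogenic differentiation, were not called, at 0.32 ± 0.25 and 0.03 ± 0.22 (SD, n = 4). *MYOD1* had 0.42, 0.46, 0.46, and −0.06 in replicates 1 to 4. Without replicate 4, 8 of the 10 tested muscle markers were called lower and 1 higher. All 10 were well above background in control cells, as were the tested markers of fibroblasts and of smooth muscle and pericytes, so that these levels do not separate the cell types.

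Of 10 fibroblast markers, 9 were tested, with 6 called higher, 0 lower, and a median of 0.42. The shares over all tested genes were 12.3% higher and 16.3% lower. The median was 0.68 without replicate 4 and 0.78 with median centering, where 8 were called higher, and 1 marker was called lower without replicate 3. Their summed signal was 420615 to 510879 units in control and 414763 to 647742 units in HMB-treated cells. *PDGFRA*, a growth factor receptor of fibroblasts and muscle mesenchymal cells, rose most (log2 ratio 1.49 ± 0.26, SD, n = 4). With scaling to spike-in RNA, 1 of these markers was called higher and 2 lower. The median of the list was 0.49 above that of all probes, a distance that this scaling cannot change, as it shifts all probes of an array alike. Of 6 tested markers of smooth muscle and pericytes, 1 was called, *SMTN*, a smooth muscle cytoskeletal protein, at −0.59 ± 0.25 (SD, n = 4), and the list had a median of −0.12 and summed signals of 33051 to 44240 units in control and 31179 to 47884 units in HMB-treated cells. None of 6 endothelial markers and none of 4 adipocyte markers with a probe passed the filter on dim probes. Of 7 immune markers, 2 were tested, of which *CD68*, a lysosomal protein of macrophages, was called higher (0.88 ± 0.20, SD, n = 4) and *CD14* was not (0.20 ± 0.19). The immune markers *CSF1R*, *CD3E*, and *ITGAM* did not pass the filter on dim probes, and *PTPRC* and *CD163* were not analysed here. The part of the cell composition in the light chain values was not tested.

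The direction of the striated chains was the same under each alternative run, but the size was not. Alternatives that changed only the test or the filter kept the same ratios, so that their direction could not differ. Scaling to spike-in RNA moved the median of all tested probes by −0.49. Relative to that median *MYL3* was at −0.63, *MYL2* at −0.47, *MYL4* at −0.41, and *MYL1* at −0.24. *MYL6B* was at −0.28, *MYL6* at 0.10, and *MYL9* at 0.07. This scaling shifts all probes of an array alike, so that these distances are those of the deposited ratios and could not change. No other scaling moved the median of all probes by more than 0.08. Median centering without lowess moved *MYL4* and *MYL6*, which were brighter than 97.4% and 99.4% of the tested probes, to −0.10 and 0.79, whereas *MYL3*, which is brighter than 41.4% of the tested probes, stayed called.

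**Figure D4:**
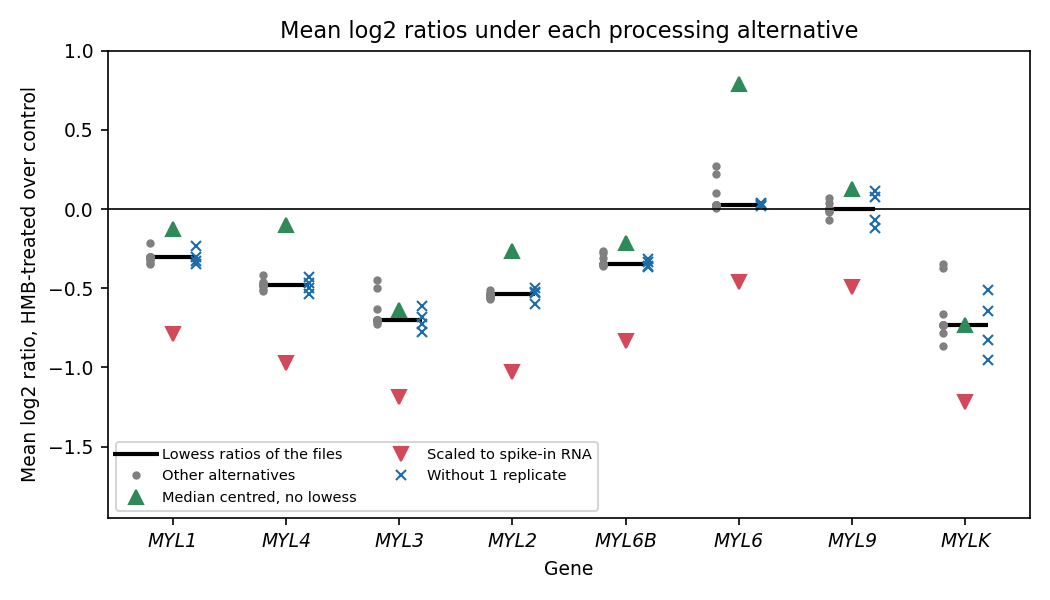
Mean log2 ratio of HMB-treated over control ESC (y axis) for each gene (x axis) under each processing alternative, with a bar for the deposited lowess ratios, triangles for median centering and spike-in scaling, crosses for each replicate left out, and dots for the rest. The points of *MYL1*, *MYL2*, *MYL3*, *MYL4*, *MYL6B*, and *MYLK* are below 0 throughout, whereas those of *MYL6* and *MYL9* lie on both sides.

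The 5 genes with the profile nearest to the mean of the striated chains over the 4 arrays, among 8065 named genes outside the list, were *PDLIM1*, *RNF4*, *JAM3*, *USP9X*, and *MAP1LC3B*. Their root mean square distance from that profile ranged from 0.03 to 0.04 on the log2 scale, and their mean log2 ratios from −0.52 to −0.48.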

How the data were processed

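Each array carried the RNA of HMB-treated cells in Cy5 and control RNA in Cy3. The intensity values deposited by the authors are scanner signals, background-subtracted and normalized within the array (linear and lowess) by Feature Extraction, version 10.10.1.1 per the file headers. The deposited log10 ratios set the normalized Cy5 signal over that of Cy3, and the authors' table holds the same ratios within 3.96e-05. The log2 ratios were calculated here from these deposited log10 ratios. For signals near background the files hold a surrogate value, which compresses ratios of dim probes.

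Ratios were tested in R 4.3.3 with limma 3.58.1 (intercept, empirical Bayes, Benjamini-Hochberg over 24669 probes, of 43603). To be tested, a probe needed 1 channel that was well above background on each of the 4 arrays, and at least 3 ratios. Control spots and spots marked as outliers (13 to 35 per array) were left out, and 0 were saturated. In Cy3 57.6 to 60.6% and in Cy5 55.2 to 61.8% of spots were well above background, and arrays correlated with r of 0.837 to 0.920 across probes, which are not independent. The number of arrays limits the precision.

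RefSeq (assembly TB-T2T) was used only for names, for 1684 probes by gene ID and 436 by accession. Promoter and protein sequences were not used here. All listed genes are named by the brightest tested probe, with, of each other list, the called genes with the largest rise and fall, and the 5 nearest profiles. Members and lists were chosen with earlier results of these data known. Per-sample columns left unused numbered 0. The test was tried on simulated data. Alternatives were limma's treat, the methods' t-test, trend and robust moderation, array weights, normexp (offset 50) or no background correction with loess, median centering, scale normalization, spike-in scaling, GC correction, the authors' table, 3 changes of filter, means over probes, other classes, and each replicate left out.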

Additional observations from a re-analysis of the deposited data

How the results depend on the processing

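The 4 lower and 0 higher calls among the member probes became 2 lower and 5 higher with median centering without lowess, 12 lower with scaling to spike-in RNA, and 0 lower with treat, which tests against an FC of 1.3. The 5 higher calls were all of *MYL6*, whose 5 overlapping probes read a single site, and the 12 lower calls include the same 5 probes. Leaving out 1 replicate gave 3 to 4 lower and 0 higher calls, and under treat the adjusted p was 0.21 for *MYL2*, 0.0535 for *MYL3*, 0.537 for *MYL4*, and 0.384 for *MYLK*. The number of all called probes, 7046, became 2822 with treat, 3539 with normexp, 4440 without background correction, and 18570 with spike-in scaling (6667 to 7364 without 1 replicate). The difference of striated minus smooth and non-muscle chains, −0.52, was −0.59 without background correction, −0.74 with median centering, and −0.40 with *MYL6B* as non-muscle, and −0.54 to −0.49 without 1 replicate. With median centering the striated chains each lay nearer to 0 than in the deposited ratios, while *MYL6* rose to 0.79. Without *MYL9* or without *MYL4*, both chosen after seeing the data, the difference moved by less than its SD. *MYL6* reversed to −0.46 with spike-in scaling. *MYL9*, near 0, reversed to 0.037 without background correction, 0.13 with median centering, and 0.068 with GC correction. Without 1 replicate *MYL9* ranged from −0.12 to 0.11, and it reversed only without replicate 1 (0.11) and without replicate 2 (0.076). *MYLK* lost its call in 8 of 19 alternatives, including the methods' t-test (adjusted p 0.155) and no filter on dim probes (0.147). With spike-in scaling *MYL1* (−0.79), *MYL6B* (−0.83), and *MYL9* (−0.49) were called lower too. The causes were not tested. Each ratio already pairs both RNAs of its array, so that the fit on the ratios is paired by array and no further pairing was added.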
